A study of Mus musculus with 11 samples.

Results

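Genomic regions occupied by both Runx3 and Brn3a, and carrying a RUNX binding site but no Brn-family motif, were described in TrkC neurons of the dorsal root ganglia (DRG). A region was taken when a peak of the Runx3 list shared at least 1 bp with a peak of the Brn3a list and its centre lay more than 1 kb from every protein-coding transcription start site (TSS). The Runx3 peak had to hold 1 or more RUNX binding sites (RBS), and every overlapping Brn3a peak had to be scored 0 for the Brn-family motif V$BRNF. A stretch of chromosome 4 that holds Runx3 itself was left out. Members were thus chosen by measured values, namely the peak calls of both antibodies, together with the letters of the sequence, and their occupancy and their words for these factors are given as a description. With these conditions 1134 of the 25883 nuclear peaks of the Runx3 list remained, and they are called RUNX-only co-bound regions. Both lists were made by CUT&RUN, a method that cuts DNA with an antibody-guided nuclease around the protein of interest and sequences the fragments set free. The cells were GFP-positive neurons sorted from DRG of E12.5 Runx3-BAC-GFP-CB6 transgenic embryos. The libraries were 3 with anti-Runx3, 4 with anti-Brn3a, 3 against acetylated lysine 27 of histone H3 (H3K27Ac) and 1 with normal rabbit serum (NRS). All came from this 1 genotype and stage, and no group without Runx3 or Brn3a was among them. The sort depends on expression of the BAC (bacterial artificial chromosome) reporter, and the purity of the sorted cells is not measured by lists of peaks. Each list keeps peaks present in 2 or more libraries of its antibody, and it gives positions only. No height or value per library could therefore be given, and the read depth is unknown. Tests and intervals count regions, or words where that is stated, and neither are replicates of a condition.

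Runx3 belongs to the RUNX family of transcription factors (TFs), which contact a short DNA word, TGTGGT, through the Runt domain and recruit co-activators or Groucho/TLE co-repressors. In the DRG, Runx3 is required by TrkC-expressing neurons, which mature into proprioceptors serving muscle spindles and tendon organs. Brn3a (gene Pou4f1) is a POU-domain TF found throughout sensory ganglia and prefers AT-rich words related to TTAATGA. The nuclease releases fragments next to the bound protein as well, so that presence in a list is occupancy of a neighbourhood and not contact with a given word. The RBS number in the deposited table equalled the number of TGTGGT or TGCGGT words and, as a second form, TGTGGC or TGCGGC words on either strand in all 25883 nuclear peaks, and these 4 are called RUNX words.

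Co-bound peaks made up 8453 of the 25883 (32.7%), of which 5736 were distal and 5677 lay outside the left-out stretch. Of these, 3356 (59.1%) held a RUNX word, and 1134 of the 3356 (33.8%) lacked V$BRNF. For comparison, 3 like sets of distal peaks were used. These were 7931 peaks with a RUNX word and no Brn3a peak (Runx3-only peaks), 2222 co-bound peaks with a RUNX word and V$BRNF (both-motif regions), and 920 co-bound peaks with neither. The left-out stretch held 22 further peaks that met the other conditions. At the limits, the members nearest to a TSS were 1003 and 1020 bp away, and the nearest otherwise equal peaks inside the limit were 963 and 950 bp away. The smallest overlap was 1 bp, and 9 members shared under 10 bp. A single RUNX word was held by 661 members, which thus stood at the limit of the rule.

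Sequences of 9 members are shown to make plain how differently the RUNX word can be set in these regions. They were read from the GRCm38 genome (RefSeq), plus strand, 5′ to 3′, over the whole peak or its central 300 bases. Capitals mark RUNX words, which appear as their reverse complements where the word lies on the minus strand.
Als2cl, intron of Als2cl, whole peak, chr9:110896665-110896950: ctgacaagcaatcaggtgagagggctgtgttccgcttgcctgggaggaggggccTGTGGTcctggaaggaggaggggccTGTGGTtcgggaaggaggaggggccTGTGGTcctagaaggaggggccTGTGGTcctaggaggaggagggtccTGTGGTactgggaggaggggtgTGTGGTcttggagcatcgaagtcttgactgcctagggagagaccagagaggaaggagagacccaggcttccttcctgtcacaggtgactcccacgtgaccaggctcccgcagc
Isl1, intergenic, 186088 bp upstream of the Isl1 start, centre of the peak, chr13:116495628-116495927: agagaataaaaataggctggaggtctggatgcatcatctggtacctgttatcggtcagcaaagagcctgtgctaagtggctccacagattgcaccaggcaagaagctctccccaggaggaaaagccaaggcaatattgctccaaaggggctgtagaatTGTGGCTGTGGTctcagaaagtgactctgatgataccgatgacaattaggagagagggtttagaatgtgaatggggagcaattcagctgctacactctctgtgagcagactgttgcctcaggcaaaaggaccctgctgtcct
Myt1l, intergenic, 206571 bp upstream of the Myt1l start, centre of the peak, chr12:29321664-29321963: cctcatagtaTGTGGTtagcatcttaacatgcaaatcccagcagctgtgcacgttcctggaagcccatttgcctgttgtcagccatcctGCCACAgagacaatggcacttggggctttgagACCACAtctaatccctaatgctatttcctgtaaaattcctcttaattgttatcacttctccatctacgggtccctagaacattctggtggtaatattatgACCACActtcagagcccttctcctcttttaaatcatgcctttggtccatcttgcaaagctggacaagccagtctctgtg
Pou4f1, intron of D130079A08Rik, 58887 bp downstream of the Pou4f1 start, centre of the peak, chr14:104408963-104409262: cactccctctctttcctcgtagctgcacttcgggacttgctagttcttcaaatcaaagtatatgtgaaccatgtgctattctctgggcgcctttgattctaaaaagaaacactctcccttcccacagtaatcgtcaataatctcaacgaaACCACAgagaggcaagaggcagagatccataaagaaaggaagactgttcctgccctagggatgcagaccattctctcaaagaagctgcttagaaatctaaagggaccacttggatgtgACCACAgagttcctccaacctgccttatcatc
Ntrk2, intron of Ntrk2, 39049 bp downstream of its start, centre of the peak, chr13:58845469-58845768: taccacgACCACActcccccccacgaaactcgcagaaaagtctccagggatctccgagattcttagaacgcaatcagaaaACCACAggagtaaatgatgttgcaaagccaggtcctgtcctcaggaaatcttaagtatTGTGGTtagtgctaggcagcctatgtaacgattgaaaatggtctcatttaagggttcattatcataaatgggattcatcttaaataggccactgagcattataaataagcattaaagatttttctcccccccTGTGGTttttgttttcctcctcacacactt
Ntrk3, intron of Ntrk3, 141890 bp downstream of its start, whole peak, chr7:78596079-78596166: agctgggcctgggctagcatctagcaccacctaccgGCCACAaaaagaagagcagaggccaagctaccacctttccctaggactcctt
Tle3, intron of Tle3, 5901 bp downstream of its start, whole peak, chr9:61378154-61378381: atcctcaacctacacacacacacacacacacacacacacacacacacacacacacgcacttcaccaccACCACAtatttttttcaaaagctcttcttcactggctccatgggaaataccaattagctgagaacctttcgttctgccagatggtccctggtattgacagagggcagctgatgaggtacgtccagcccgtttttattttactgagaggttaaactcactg
Cartpt, intergenic, 119804 bp downstream of the Cartpt start, whole peak, chr13:99781179-99781395: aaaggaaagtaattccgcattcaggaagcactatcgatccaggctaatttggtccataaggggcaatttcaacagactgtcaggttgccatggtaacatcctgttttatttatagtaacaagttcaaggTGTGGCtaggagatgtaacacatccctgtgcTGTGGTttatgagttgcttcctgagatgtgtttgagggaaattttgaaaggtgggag
Ngfr, intergenic, 46592 bp upstream of the Ngfr start, whole peak, chr11:95634242-95634412: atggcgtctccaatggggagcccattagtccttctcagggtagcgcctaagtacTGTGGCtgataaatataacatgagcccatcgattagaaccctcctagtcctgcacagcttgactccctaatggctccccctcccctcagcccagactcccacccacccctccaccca

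The Als2cl region is a tandem array. All 6 of its RUNX words were TGTGGT on 1 strand, and successive words began 22 to 25 bp apart within a repeated purine-rich unit. Its Brn3a peak was only 93 bp wide and lay wholly inside the Runx3 peak of 286 bp. The region near Isl1, which encodes a LIM-homeodomain TF of sensory and motor neurons, held TGTGGC directly followed by TGTGGT. Upstream of Myt1l, a zinc-finger TF of neurons, 4 RUNX words on both strands stood 32 to 100 bp apart in the printed window, beside an ATGCAAAT octamer word and a CAGCTG. The Ntrk2 intron region, in the gene for the BDNF receptor TrkB, held 4 RUNX words, of which all 4 were of the TGTGGT or TGCGGT kind. At the other extreme, the region in Ntrk3, the gene of TrkC, held a single TGTGGC and none of the other words searched below. Near Cartpt, which encodes the CART prepropeptide, 2 RUNX words were accompanied by GTTGCCATG, a word bound by Rfx factors, and by CTAATT and ATCGAT.

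Most members carried few RUNX words, and fewer of them were of the TGTGGT type than in Runx3-only peaks. The 1134 regions held 1804 RUNX words. A single word was present in 661 (58.3%), 2 words in 329 (29.0%), 3 in 107 (9.44%) and 4 or more in 37 (3.26%). The highest number was 7, in a region of 855 bp in an intron of Rara, a retinoic acid receptor gene, and this was also the widest member. Members averaged 1.59 ± 0.849 words (SD, n = 1134), against 1.74 ± 1.12 in Runx3-only peaks (n = 7931) and a mean of 1.62 in both-motif regions. Per 100 bp the words numbered 0.693 in members, 1.06 in Runx3-only peaks and 0.644 in both-motif regions. Both measures are a description, since at least 1 word was required at any width and the sets differ in width.

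Of the 1804 words, 1007 (55.8%) were TGTGGT or TGCGGT, against 69.0% of 13775 words in Runx3-only peaks and 61.5% of 3589 in both-motif regions. Both differences passed Fisher's exact test (two-sided, adjusted p = 2.00e-27 and 8.36e-05). This test counts words, and several words of 1 region are not independent, so the p-values are too small by an unknown amount. In 200 bp windows of DNA 2 kb to each side of members, 17.0% held TGTGGT or TGCGGT and 13.7% the second form. The part of such background words in the shares was not tested. The lower share lay in TGTGGT itself, which made up 44.3% of the words in members, 57.3% in Runx3-only peaks and 51.1% in both-motif regions. TGCGGT took a like share in the sets, at 11.5%, 11.8% and 10.4%. TGTGGC made up 34.1% in members, 24.9% in Runx3-only peaks and 31.3% in both-motif regions, and TGCGGC took the remainder. By region, 774 members (68.3%) held at least 1 TGTGGT or TGCGGT and the others qualified through TGTGGC or TGCGGC alone.

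**Figure D1:**
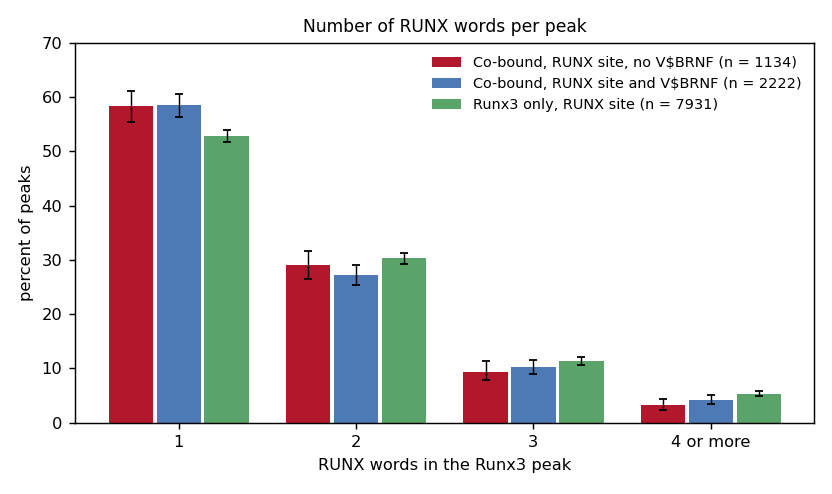
Percent of peaks with 1, 2, 3 and 4 or more RUNX words in RUNX-only co-bound regions (red), both-motif regions (blue) and Runx3-only peaks (green), with Wilson 95% intervals as bars. Regions with 1 word make up 58.3% of RUNX-only co-bound regions, 58.5% of both-motif regions and 52.9% of Runx3-only peaks.

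The bases beside the word were then compared, 3 before and 4 after TGTGGT or TGCGGT, read on the strand of the word. These tests, too, count words, and words of 1 region are not independent. Against the same 6 letters in DNA 2 kb to each side (417 words), C stood just before the word more often, at 44.8% of 1007 words in members and 31.4% in flanking DNA (odds ratio 1.77, Fisher's exact test, adjusted p = 7.76e-05). A was more frequent at the second base after it (31.9% and 21.8%, exact adjusted p = 0.00164), and A at the first base after it was less frequent (11.2% and 18.7%, exact adjusted p = 0.00185). A and G before the word were less frequent too, and 5 of 28 base and place combinations (17.9%) passed. Against 9507 words of Runx3-only peaks, 6 of 28 (21.4%) passed. The first base after the word was T in 35.7% of words in members and 42.6% in Runx3-only peaks (exact adjusted p = 4.96e-04), and G in 25.7% and 20.2% (exact adjusted p = 8.46e-04). C was more frequent at the second base after it, at 16.8% and 11.5% (odds ratio 1.55, exact adjusted p = 7.76e-05). The C before the word, at 44.8% in members and 42.4% in Runx3-only peaks, did not pass (odds ratio 1.10, interval 0.966 to 1.26, exact adjusted p = 0.294).

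The peaks of both factors lay nearly on top of each other, which is a description, since the rule required them to overlap. Members had a median Runx3 peak width of 239 bp (quartiles 174 and 324 bp) and a median Brn3a peak width of 188 bp (quartiles 139 and 253 bp). The median shared stretch was 157 bp (quartiles 110 and 214 bp), and in 1085 members (95.7%) it covered at least 50% of the narrower peak. The centres were a median of 33.5 bp apart. The Brn3a peak was the wider in 374 members. In 11 members 2 Brn3a peaks overlapped the Runx3 peak, giving 1144 Brn3a peaks in all, of which 1 was shared by 2 members. A RUNX word lay in the shared stretch in 890 members (78.5%).

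The place of the RUNX word is tied to the rule, which required it in the Runx3 peak and not in the Brn3a peak, so that the distances over all words are a description. The nearest word was a median of 33.0 bp from the Runx3 centre and 45.5 bp from the Brn3a centre, and it was nearer to the Runx3 centre in 680 members, to the Brn3a centre in 449 and at equal distance in 5. The mean difference was -15.6 ± 1.35 bp (SE, n = 1134). When only words in the shared stretch were used, an alternative chosen after seeing the data, the difference in 890 members was -2.0 ± 1.29 bp (SE). The nearest word was nearer to the Runx3 centre in 459 and to the Brn3a centre in 426. In 2039 both-motif regions treated in the same way the difference was -14.0 ± 1.11 bp (SE), and the sets differed by 12 bp. This limit kept 890 of 1134 members and 2039 of 2222 both-motif regions, and it removes words outside the Brn3a peak. It thus acted unequally on the sets, and all differences in the shared stretch, that of members included, are a description. Over all words the sets differed by 2.44 bp (permutation p = 0.160).

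**Figure D2:**
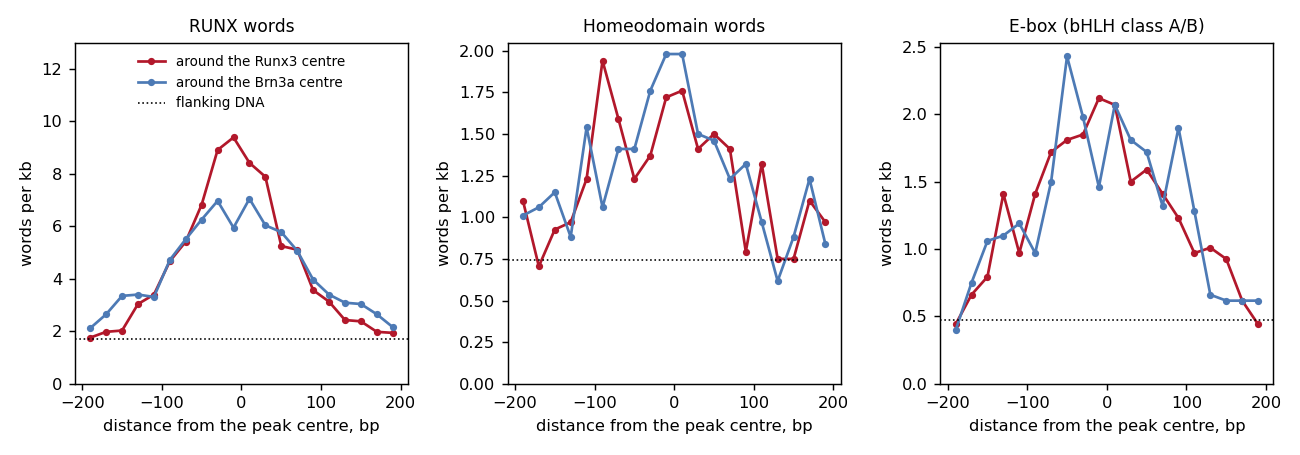
Words per kb in 20 bp bins against the distance in bp from the Runx3 peak centre (red) and the Brn3a peak centre (blue) of the 1134 regions, for RUNX words, the homeodomain words CTAATG or CTAATT and the E-box CAGCTG, with flanking DNA as a dotted line. Within 50 bp the RUNX words reach 8.22 per kb around the Runx3 centre and 6.39 around the Brn3a centre, against 1.72 in flanking DNA, and CAGCTG reaches 1.85 and 1.81, against 0.471.

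Words of other TFs were searched on both strands in the 200 bp around the Runx3 centre. The panel had 37 entries, of which 30 were tested and 7 only described, because they hold RUNX or Brn-like letters that the rule used. Members were first set against 2208 windows of flanking DNA 2 kb away that touched no peak. Of the 30 entries 15 (50.0%) passed Fisher's exact test with Benjamini-Hochberg adjustment, 12 of them higher in members, and in windows of 100 bp 9 passed. Words may overlap one another, and CAGCTG reads the same on both strands. The foremost was the E-box CAGCTG, a word of basic helix-loop-helix TFs, found in 306 members (27.0%, Wilson 95% interval 24.5% to 29.6%) against 8.79% of flanking windows (odds ratio 3.84, interval 3.14 to 4.70, exact adjusted p = 1.81e-40). Rfx words (GTTGCCATG, GTTGCTATG or GTTACCATG), bound by the regulators of ciliary and other genes, were in 44 members (3.88%) against 0.498% of flanking windows (odds ratio 8.06, exact adjusted p = 2.07e-11). The Ebf word, bound by the Ebf TFs of young neurons, was in 32 members (2.82%) against 0.543% (odds ratio 5.31, exact adjusted p = 9.05e-07). Zic words (CAGCAGG or CAGCGGG) were in 153 members (13.5%) against 5.80% (odds ratio 2.53, exact adjusted p = 2.95e-12).

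Further entries higher than in flanking DNA were the CRE (TGACGTCA or TGACGCA, the word of CREB-type factors, odds ratio 3.53), the Ets word CCGGAA (2.18), the E-boxes CACGTG (1.81) and CAGATG or CATATG (1.37), the Klf/Sp words GGGCGG or GGGTGG (1.52) and the Meis word TGACAG (1.51). The Ctcf word was in 24 members but in only 1 flanking window, which gave an odds ratio of 47.7 with an interval of 7.75 to 1963, and the full NF1 word was in 8 members against 3 flanking windows. CAGGTG (odds ratio 0.646), the Gata word AGATAA (0.731) and the nuclear receptor word AAGGTCA (0.581) were lower. The calls of the Ets word, the E-box CACGTG, the E-box entry with CAGATG, NF1, Gata and the nuclear receptor word were lost in windows of 100 bp, and those of NF1, Gata and the nuclear receptor word beyond 5 kb from a TSS as well. Base composition moved with these results. The windows of members held 52.8 ± 6.93% G and C, against 45.5 ± 7.69% in flanking DNA, and 5.42% against 24.2% of their bases were repeat-masked. When only windows that were mostly not repeat-masked were used, 15 entries again passed, with odds ratios of 3.53 for CAGCTG and 8.20 for Rfx. Beyond that setting, the part of either in the odds ratios was not tested. Fox words (TGTTTAC or TGTTTGC), Sox words (ACAAAG or ACAATG) and Tead words (GGAATG) gave odds ratios of 0.985, 0.891 and 1.11 and did not pass. As background over windows of the same length, all peaks of the Runx3 list held CAGCTG in 17.8%, Rfx in 2.40%, CRE in 3.30%, Ebf in 1.67%, Ctcf in 2.81%, Onecut in 9.77% and Klf/Sp in 39.0%. They held Zic in 11.9%, Meis in 15.3% and the entry with CAGATG in 18.8%. The Ets word CCGGAA was in 9.27% of the whole list against 4.14% of members, and CACGTG in 5.80% against 5.29%.

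Against peaks that had a RUNX word and no Brn3a, 3 of the 30 entries (10%) passed, and all were higher in the co-bound members, while over whole peaks, which differ in width, 22 passed. CAGCTG was in 27.0% of members against 19.8% of 7931 Runx3-only peaks (odds ratio 1.49, interval 1.29 to 1.73, exact adjusted p = 1.84e-06). Rfx words were in 3.88% against 1.78% (odds ratio 2.23, interval 1.54 to 3.17, exact adjusted p = 4.21e-04). The CRE was in 2.82% against 1.54% (odds ratio 1.86, interval 1.21 to 2.78, exact adjusted p = 0.0230), a call that was lost among peaks above the median width (odds ratio 1.40, exact adjusted p = 0.592) and with at least 50% of the narrower peak shared (1.72, exact adjusted p = 0.0730). The Ebf word (2.82% against 1.92%, odds ratio 1.49, interval 0.977 to 2.20) did not pass.

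Against the co-bound regions with neither motif, 1 of 30 entries (3.33%) passed, and it was lower in members. This was Klf/Sp, in 24.4% of members against 30.9% of 920 regions (odds ratio 0.724, interval 0.593 to 0.884, exact adjusted p = 0.0121). This call was lost in windows of 100 bp and around the Brn3a centre, and over whole peaks the odds ratio turned to 1.08. CAGCTG was in 27.0% of members and 27.4% of the regions with neither motif (odds ratio 0.980, interval 0.802 to 1.20), and CRE and Rfx gave odds ratios of 0.693 and 0.589 (exact adjusted p = 0.408 and 0.0606).

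Against both-motif regions, 10 of 30 entries (33.3%) passed, 8 of them higher in members, while 5 or 6 passed in windows of 100 bp, above the median width or beyond 5 kb from a TSS. The higher entries were CAGCTG (odds ratio 1.35), CACGTG (1.74), CCGGAA (1.96), CRE (2.55), Klf/Sp (1.72), Ctcf (3.98), Rfx (1.79) and Zic (1.70). Of these, CACGTG, CRE, Ctcf and Rfx did not pass among peaks above the median width. The calls of CACGTG, the Ets word and Rfx were also lost beyond 5 kb from a TSS and, with that of Zic, in windows of 100 bp. The Onecut words ATCGAT or ATCAAT, bound by the cut-homeodomain TFs of the Onecut family, were in 116 members (10.2%) against 506 both-motif regions (22.8%), with an odds ratio of 0.386 (interval 0.309 to 0.481, exact adjusted p = 3.71e-18). Hox words (TTTATGG or TTTATTG) were lower too (odds ratio 0.672, exact adjusted p = 0.0342), a call that was lost above the median width, beyond 5 kb from a TSS and in windows of 100 bp (0.877, exact adjusted p = 0.831). The members' windows held 52.8% G and C and those of both-motif regions 47.4%. Since the words that V$BRNF accepts are not given in the sources used here, how much of this contrast the absence of V$BRNF fixes cannot be told apart from the rest.

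**Figure D3:**
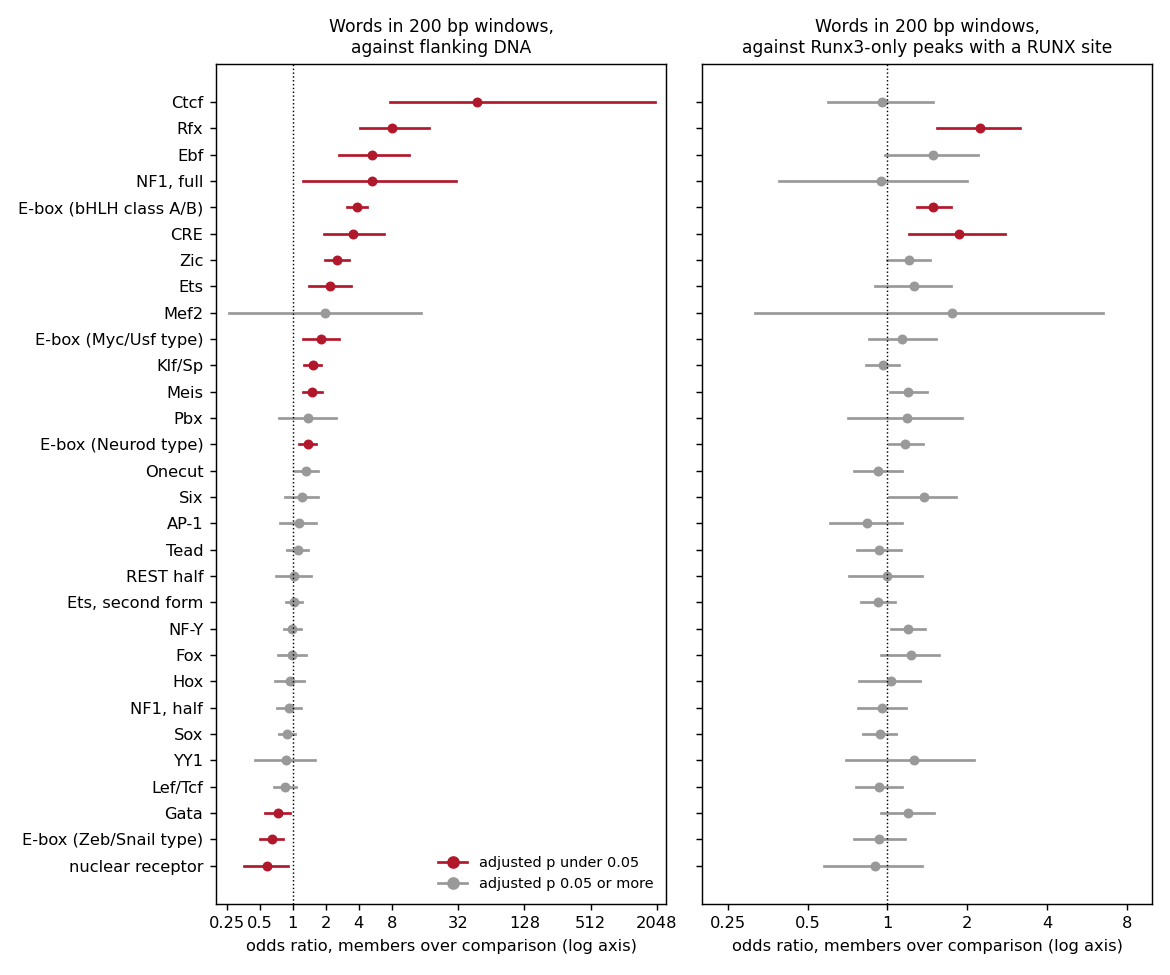
Odds ratios (log axes) with 95% intervals of the 30 tested panel entries in 200 bp windows of RUNX-only co-bound regions, against flanking DNA on the left and against Runx3-only peaks on the right, with calls in red. CAGCTG (the E-box of class A/B factors) lies at 3.84 against flanking DNA and 1.49 against Runx3-only peaks, and Rfx at 8.06 and 2.23.

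Brn-like letters followed the rule and are given as a description. In the Brn3a peaks of members, TTAATGA was found in 4 of 1144 (0.350%), against 391 of 2214 V$BRNF peaks (17.7%) of both-motif regions. ATTAAT was in 0.524% against 29.4%. The bare core TAAT was in 617 of the 1144 peaks (53.9%), against 97.1%, and no share of this short word in flanking DNA is given. In 200 bp windows, the longer words were rarer in members than in flanking DNA. TTAATGA was in 1.06% against 2.72%, ATTAAT in 2.20% against 4.76% and TAATTA in 1.85% against 6.25%. The octamer words ATGCAAAT or ATGCTAAT were in 1.85% against 1.72%. The looser homeodomain words CTAATG or CTAATT, which LIM-homeodomain and other homeodomain TFs can bind, were in 288 of the members' Brn3a peaks (25.2%), against 48.8%. In the 200 bp windows they were found in 281 members (24.8%), 16.8% of Runx3-only peaks, 35.3% of both-motif regions, 20.2% of regions with neither motif and 13.4% of flanking windows. They were the denser around the Brn3a centre, with 1.85 words per kb within 50 bp there and 1.53 around the Runx3 centre, against 0.743 in flanking DNA. The printed Isl1, Myt1l, Tle3, Cartpt and Ngfr regions each held such a word.

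Across all words of 6 bases, 108 of 2028 tested (5.33%) differed between members and Runx3-only peaks (Fisher's exact test, Benjamini-Hochberg adjustment over all words). Of these, 60 were higher in members, of which 45 held at least 4 G or C and 21 a CpG, and 48 were lower, of which 26 held at least 4 A or T. The members' windows held 52.8% G and C against 51.4%. Above the median width 33 words passed. The call held for 25 words under the main setting and each of 4 alternatives. The 6 higher ones among them were CAGCTG and CACTTA, followed by AAGTGC with GAGTGC, and then by AGCACT with CCCCGC. Of these, CACTTA was in 202 members (17.8%) against 11.6% of Runx3-only peaks (odds ratio 1.65, exact adjusted p = 4.30e-06), 20.7% of both-motif regions, 15.9% of regions with neither motif and 8.70% of flanking windows. AAGTGC was in 208 members (18.3%) against 12.9% (odds ratio 1.52, exact adjusted p = 2.42e-04), 18.2% of both-motif regions and 13.8% of regions with neither motif. Both are parts of GCACTTAG, whose share, chosen after its values were seen, was 2.56% in members against 1.17% in Runx3-only peaks and 0.589% of flanking windows. It was no higher in members than in the other co-bound sets, at 2.88% of both-motif regions and 3.48% of regions with neither motif. CACTTA stood at 1.23 words per kb within 50 bp of the Brn3a centre and 1.13 around the Runx3 centre, against 0.482 in flanking DNA.

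The lower words were led by letters that extend the RUNX word. AACCAC, which shares 5 bases with it, was in 27.9% of members against 42.8% of Runx3-only peaks (odds ratio 0.516), and CCACAA in 26.9% against 39.6% (odds ratio 0.560). Of the called words, 1 higher and 5 lower ones shared 5 bases with a RUNX word. The rule required a RUNX word anywhere in the peak, while these shares come from 200 bp windows. Such a window covers less of a wider peak, and the median widths were 239 bp in members and 165 bp in Runx3-only peaks. These words are therefore given as a description. They go with the lower share of TGTGGT, which was in 49.6% of members' windows against 68.5%, values with the same limit. The largest odds ratio of a higher word was 2.17, for CGCGCA, in 44 members (3.88%) against 1.83% (exact adjusted p = 0.00289), and it was lost among peaks above the median width (1.76, exact adjusted p = 0.167). CGCGCA was in 0.765% of both-motif regions and 4.89% of regions with neither motif.

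Members were wider and lay farther from a TSS than Runx3-only peaks and regions with neither motif, and they were narrower and nearer than both-motif regions. Their median width of 239 bp compared with 165 bp in Runx3-only peaks, 262 bp in both-motif regions and 159 bp in regions with neither motif. Since a wide peak is more likely to overlap a Brn3a peak or to hold a word, width is tied to the rules of the sets and is given as a description. The median distance to a protein-coding TSS was 42.1 kb, against 30.4, 65.1 and 32.6 kb in the same order (adjusted permutation p at most 5.33e-05 on the log2 scale). The quartiles were 13444 and 112164 bp, 318 members (28.0%) lay more than 100 kb away and 134 (11.8%) lay within 5 kb. G and C made up 52.8 ± 6.93% of their windows (SD), against 51.4%, 47.4% and 53.3%, and the last difference, -0.509 percentage points, did not pass (adjusted permutation p = 0.125). Repeat-masked bases made up 5.42%, against 6.65% in Runx3-only peaks (adjusted permutation p = 6.00e-05), 5.77% in both-motif regions (adjusted permutation p = 0.257) and 7.43% in regions with neither motif (adjusted permutation p = 1.50e-05).

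By their centres, 563 members (49.6%) were intronic, 505 (44.5%) intergenic and 66 (5.82%) in an exon or an untranslated region (UTR). Intergenic positions were more frequent than in Runx3-only peaks (39.9%, odds ratio 1.21, Fisher's exact test, adjusted p = 0.0291), and exons or UTRs more frequent than in both-motif regions (3.74%, odds ratio 1.59, adjusted p = 0.0344). The first call was lost beyond 5 kb from a TSS (exact adjusted p = 0.0502) and among peaks above the median width (exact adjusted p = 0.0516), and the second beyond 5 kb. Within 1 kb of a start of any annotated transcript, non-coding ones included, lay 102 members (8.99%). Another Runx3-list peak within 10 kb was found for 479 members (42.2%), 41.0% of Runx3-only peaks, 40.5% of both-motif regions and 44.7% of regions with neither motif, and no difference passed (odds ratios 1.05, 1.07 and 0.906, exact adjusted p = 0.439 each). Another member within 10 kb was found for 50 (4.41%).

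**Figure D4:**
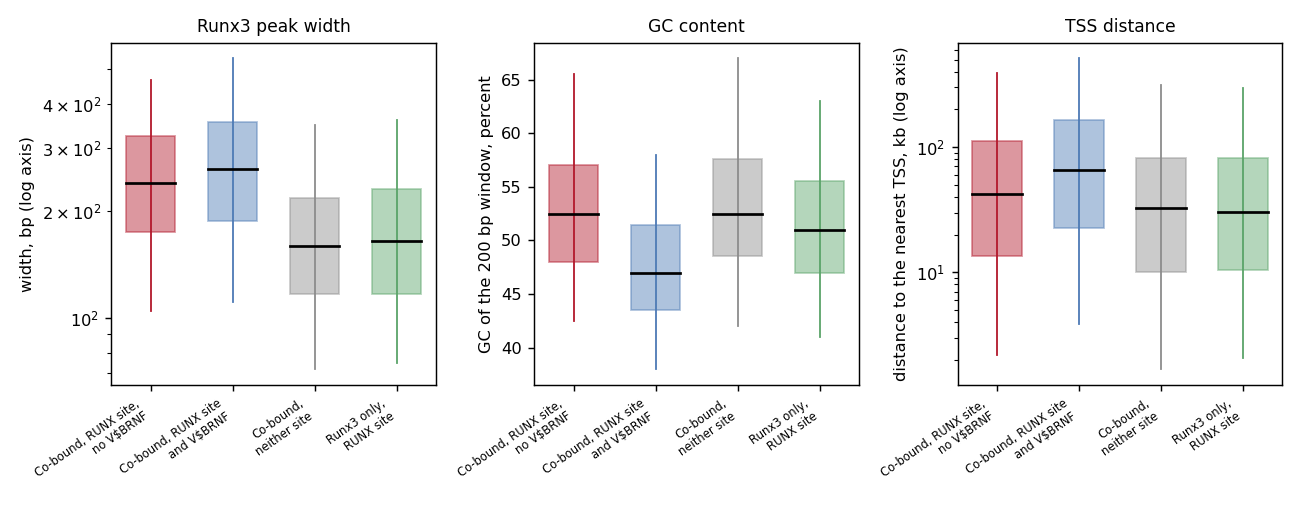
Runx3 peak width (bp, log axis), GC content of the 200 bp window (percent) and distance to the nearest protein-coding TSS (kb, log axis), with the median as a line, quartiles as boxes and the 5th to 95th percentile as thin lines, in RUNX-only co-bound regions and then both-motif regions, regions with neither motif and Runx3-only peaks. Median width is 239 bp in RUNX-only co-bound regions, against 262, 159 and 165 bp in that order.

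The members were spread thinly over genes. Each protein-coding gene was given a regulatory domain of 5 kb upstream and 1 kb downstream of its TSS, extended to the neighbours' domains by at most 1 Mb, and a region was counted for every domain it lay in. Of 21938 genes 1667 (7.60%) had at least 1 member, 1349 of them exactly 1 and 236 exactly 2, and with domains of at most 100 kb 934 genes had one. The highest number was 6, at Med13l, a subunit gene of the Mediator kinase module, and 7 genes had 5. These genes were Ajap1, Cstad, Kcnab2, Pitpnb, Rps24, Ttc28 and Zmiz1, of which the neighbours Ttc28 and Pitpnb count some of the same regions. Ttc28 held 5 members in its introns, and Maml3, a Notch co-activator gene, held 4. Map1b, a microtubule-associated protein gene, had 4 members and 0 both-motif regions in its domain. No assignment of a region to a gene was tested.

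Among RUNX genes and their cofactors, 4 of 11 genes had a member, against 7.60% of all genes, but their domains were also long (median 655 kb against 89.5 kb). Per Mb of domain they held 0.616 members, against 0.456 over all genes. Tle3, a Groucho-type co-repressor, had 2 members and 12 both-motif regions, and Runx1, the RUNX gene of other sensory neurons, had 1 and 7. Tle1 and Tle4 had 1 member each.

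Of 34 sensory neuron TF genes 11 had a member (32.4%, against 7.60% of all genes), with 20 members in all. Their median domain was 386 kb against 89.5 kb, and they held 0.971 members per Mb against 0.456. Isl1 and Myt1l had 4 members each and 2 both-motif regions each. Pou4f1, which encodes Brn3a, had 2 members and 5 both-motif regions, and Ebf1, an Ebf TF gene, had 1 and 6. Ebf2 and Sox4 had 2 members each. Among 20 proprioceptor genes 7 had a member, against 7.60% of all genes, but the domains of these 20 genes were also long. Their median domain was 305 kb against 89.5 kb, and they held 0.766 members per Mb against 0.456. The genes with a member were Ntrk3, Kirrel3 and Cdh13 with 2 each and Etv4, Crtac1, Sema5a and Tenm3 with 1 each. Both members of Ntrk3 lay in its introns, and it had 4 both-motif regions. The Etv4 member, at chr11:101814512-101815039, lay 29404 bp upstream of this Ets TF gene and held 2 RUNX words.

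Among 18 low-threshold mechanoreceptor genes 6 had a member (33.3%, against 7.60% of all genes), with 0.959 per Mb. Their median domain was 483 kb, against 89.5 kb over all genes. Cartpt had 3 members and 0 both-motif regions, Ntrk2 had 2 and 8, and Maf, a leucine-zipper TF gene of touch neurons, had 2 and 3. Among 20 pan-neuronal genes 7 had a member, at 1.24 per Mb with a median domain of 349 kb. Gap43, a growth-cone gene, and Ncam1, an adhesion molecule gene, had 3 members and 3 both-motif regions each. Axon guidance and adhesion genes had a member in 16 of 41 (39.0%), but 0.486 per Mb with a median domain of 1322 kb, and Sema6d had 3. The list drawn up for nociceptors and thermoceptors had a member in 3 of 19 genes (15.8%, 0.777 per Mb, median domain 166 kb). These were Th with 2 members and Runx1 and Scn9a with 1 each. Runx1 is also in the RUNX list, and whether these genes mark such neurons here was not tested. Genes of neurotrophic and growth factor signalling had one in 4 of 25 (16.0%, 0.395 per Mb, median domain 324 kb), among them Ngfr, the p75 receptor gene, with 2.

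The lists of cells that the sort could also hold or should lack are set beside the same 7.60% of all genes. They gave 3 of 20 glial and neural crest genes (15.0%, 0.528 per Mb), 4 of 37 immune genes (10.8%, 0.550 per Mb) and 3 of 20 muscle and liver genes (15.0%). The last had the highest density of the 11 lists, 1.47 per Mb, from 3 members in short domains (median 87.3 kb) and above each of the neuronal lists. A list of genes is described here by its counts alone, since the lists and members were chosen with earlier results of these data known.

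**Figure D5:**
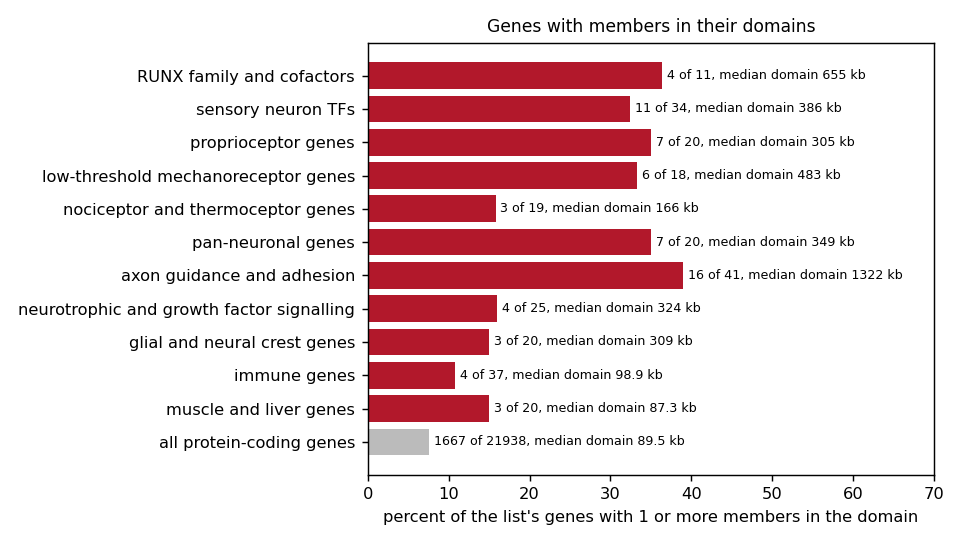
Percent of the genes of each list with 1 or more RUNX-only co-bound regions in the regulatory domain (bars from 0), with the number of genes and the median length of their domains beside each bar. Sensory neuron TFs stand at 32.4% with a median domain of 386 kb and all protein-coding genes at 7.60% with 89.5 kb.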

How the data were processed

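CUT&RUN libraries of sorted TrkC neurons were processed by the authors. The tools named in the submitters' processing notes are cutadapt, Bowtie and MACS2, with builds GRCm38 and mm10, and their versions and settings are not given in the sources used here. Deposited by the authors was 1 list of consensus peaks per antibody, with positions in bp, a deposited count of RBS per Runx3-list peak and a V$BRNF value per Brn3a-list peak. The deposited lists hold no score and no value per replicate, and replicates are not stated to be separate litters. The deposited H3K27Ac table was identical to the Runx3 table and was not used. The 2 mitochondrial peaks were left out of the 25885.

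Positions were joined in Python 3.11.15 (pandas 2.3.3, numpy 2.4.6, scipy 1.17.1, pysam 0.24.0, matplotlib 3.10.9) with the GRCm38 sequence and the GENCODE annotation. Shares were compared by Fisher's exact test and means by permutation (100000 resamples), all two-sided, with Benjamini-Hochberg adjustment at 0.05. Intervals are 95% and cover counting only. Windows were 200 bp and flanks 2 kb away. The members and all lists were chosen with earlier results of these data known. Of 254 listed symbols 253 matched. Named genes were the 15 with most members in the domain or in introns, genes with a member from 4 lists of RUNX and sensory neuron genes, and of other lists the 3 with most. Others printed with a sequence were chosen for their sequence or gene after values were seen. Alternatives were another overlap, distance limit, window, RUNX word and domain, peaks above the median width and low-repeat windows. The tests were checked on simulated data.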

Additional observations from a re-analysis of the deposited data

How the results depend on the processing

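The number of members lay between 774 and 1125 under the alternatives. No paired analysis was possible because the lists were pooled over replicates and give no value per library, and for the same reason no library could be left out. Of the panel entries called against flanking DNA, 15 became 9 with windows of 100 bp. Against Runx3-only peaks 22 were called over whole peaks, whose widths differ between the sets. Against both-motif regions 6 were called among peaks above the median width, 6 beyond 5 kb from a TSS and 5 in windows of 100 bp. Against regions with neither motif 15 were called over whole peaks, where the odds ratio of Klf/Sp turned to 1.08, and 0 around the Brn3a centre (2 by Fisher's exact test at an unadjusted p under 0.05). The odds ratio of intergenic positions against Runx3-only peaks was 1.22 above the median width and 1.21 beyond 5 kb, neither past the threshold. That of exons or UTRs beyond 5 kb was 1.43 against both-motif regions, no longer past it, and against regions with neither motif it turned to 1.04 with at least 50% of the narrower peak shared, 1.29 above the median width and 1.04 beyond 5 kb. With 50 kb in place of 10 kb, the odds ratio of a neighbouring Runx3-list peak was 1.40 against both-motif regions (Fisher's exact test, adjusted p = 4.20e-04) and 1.06 against regions with neither motif. The GC difference from regions with neither motif was -2.07 percentage points above the median width (permutation test, adjusted p = 2.00e-05). The place of the RUNX word gave -2.0 bp in the shared stretch. Its difference from both-motif regions was 6.83 bp with exactly 1 word and 12 bp in the shared stretch, a limit that acted unequally on the sets. Genes with a member numbered 973 by the nearest TSS and 934 with domains of at most 100 kb. Words of 6 bases called numbered 33 above the median width (9 higher, 24 lower) and 69 in windows of 100 bp (28 higher). The cause of these changes was not tested beyond what the settings themselves fix. Of the remaining comparisons of these summary results 121 were scored as unchanged. For effects this meant the same direction and side of the threshold, and for counts only a similar size. Without replicate values, the spread between libraries limits every statement.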

Other observations

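RUNX-only co-bound regions lay on 21 chromosomes, with at most 93 on a chromosome. The widest, of 855 bp, lay at chr11:98941929-98942783 in an intron of Rara, 2645 bp from its TSS, and held 7 RUNX words, of which 2 were TGTGGT or TGCGGT. The others with 6 words were the Als2cl array and a region of 358 bp at chr5:92896743-92897100 in an intron of Shroom3, a cytoskeletal regulator gene, with CAGCTG. A region at chr16:20701908-20702345 in a UTR of Fam131a held 5 RUNX words and none of TGTGGT or TGCGGT. The annotated gene Gm20388, which overlaps Gse1, held 9 members in its introns. Tnik, a kinase gene of neurons, held 3 in its introns and no both-motif region in its domain.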
